A study of Mus musculus with 7 samples.

Results

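Metallothionein and antioxidant genes were examined in follicular dendritic cells (FDCs), stroma of B-cell follicles that displays captured antigen to B cells. The 10 genes were Mt1, Mt2, Hmox1, Gpx1, Gpx3, Gpx4, Sod1, Sod2, Prdx1 and Txnip. They were taken by gene symbol from a table of 21176 genes, and all 10 had a row in it. The cells had been isolated by flow sorting of popliteal lymph nodes in 7 samples, of which 4 were wild-type (WT) and 3 lacked Ngfr (Ngfr KO), which encodes the neurotrophin receptor p75. All animals were male, aged 8 to 12 weeks and not immunized, and each sample pooled lymph nodes of several animals. The labels give no construct, Cre driver or background strain for the Ngfr KO mice, so which other cell types lacked Ngfr is not known from them.

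Metallothioneins are small cysteine-rich proteins that bind zinc and copper, and their genes are switched on by the zinc-sensing factor MTF1 and by glucocorticoids. Superoxide dismutases turn superoxide into hydrogen peroxide. Catalase splits it into water and oxygen, whereas glutathione peroxidases and peroxiredoxins reduce it with electrons from glutathione or thioredoxin. Txnip is an alpha-arrestin that binds thioredoxin and limits glucose uptake, and heme oxygenase 1 breaks down heme. FDCs are long-lived, radiation-resistant stromal cells that hold immune complexes through complement and Fc receptors.

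Expression was given as a normalised value per gene, in which a value of 1 stood for 230.1 to 294.8 reads depending on the sample. Libraries held 17244925 to 18873542 reads in WT and 20741770 to 21538400 in Ngfr KO. Ngfr itself was at 0.377, 0.677, 1.30 and 1.14 in WT and 0.305, 0.353 and 0.184 in Ngfr KO, from 97 to 298 and from 46 to 104 reads. Values of the groups were separate, and no Ngfr KO library was at 0. Ngfr missed the level needed for the limma test described below, and when it was added to that fit its log2 change was -0.52 (adjusted p = 0.0432), against -1.55 from edgeR (adjusted p = 0.0574). Of 15 FDC markers, 14 were called higher in Ngfr KO, and they summed to 1836 to 5135 in WT against 7984 to 10508 in Ngfr KO. Of 14 endothelial markers, 13 were tested and all 13 were called lower, and their sum was 158.6 to 204.6 in WT against 36.8 to 68.1 in Ngfr KO, with no marker at 0 in any sample. The share of reads on 15 mitochondrial genes was 5.55% to 7.42% in WT against 3.14% to 4.97% in Ngfr KO. In sorted bulk samples fewer cells of a type and less RNA per cell cannot be told apart, and this bears on every difference below.

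Of the 10 genes, Txnip, Mt1, Mt2 and Sod1 fell in Ngfr KO and Sod2 rose, while Gpx1, Gpx4 and Prdx1 did not pass the test, and Hmox1 and Gpx3 were too low for it. The test was limma on log2(value + 1) over the 8326 genes that reached a value of 1 in at least 3 samples. Genes were called at a Benjamini-Hochberg adjusted p under 0.05, taken over all genes tested. Across those genes 34.2% were called, 18.3% higher and 15.8% lower, so a call by itself was common. The 8 members tested gave 1 call higher and 4 lower, with a median log2 change of -0.59 against 0.02 over all genes tested. In 2 of the 8, Sod1 and Txnip, the WT and Ngfr KO values did not overlap, against 40.9% of all genes tested. edgeR's quasi-likelihood test on the recovered reads called 15.2% of 16751 genes, 8.67% higher and 6.55% lower. It called Sod2 higher and Mt1, Sod1 and Txnip lower among the 10 members, and not Mt2. The median edgeR log2 change was -0.15 over all 10 members, nearer 0 than the limma median, and -0.02 over all genes in that test. Without Ngfr KO replicate 3, limma called 4 members lower and 0 higher.

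**Figure D1:**
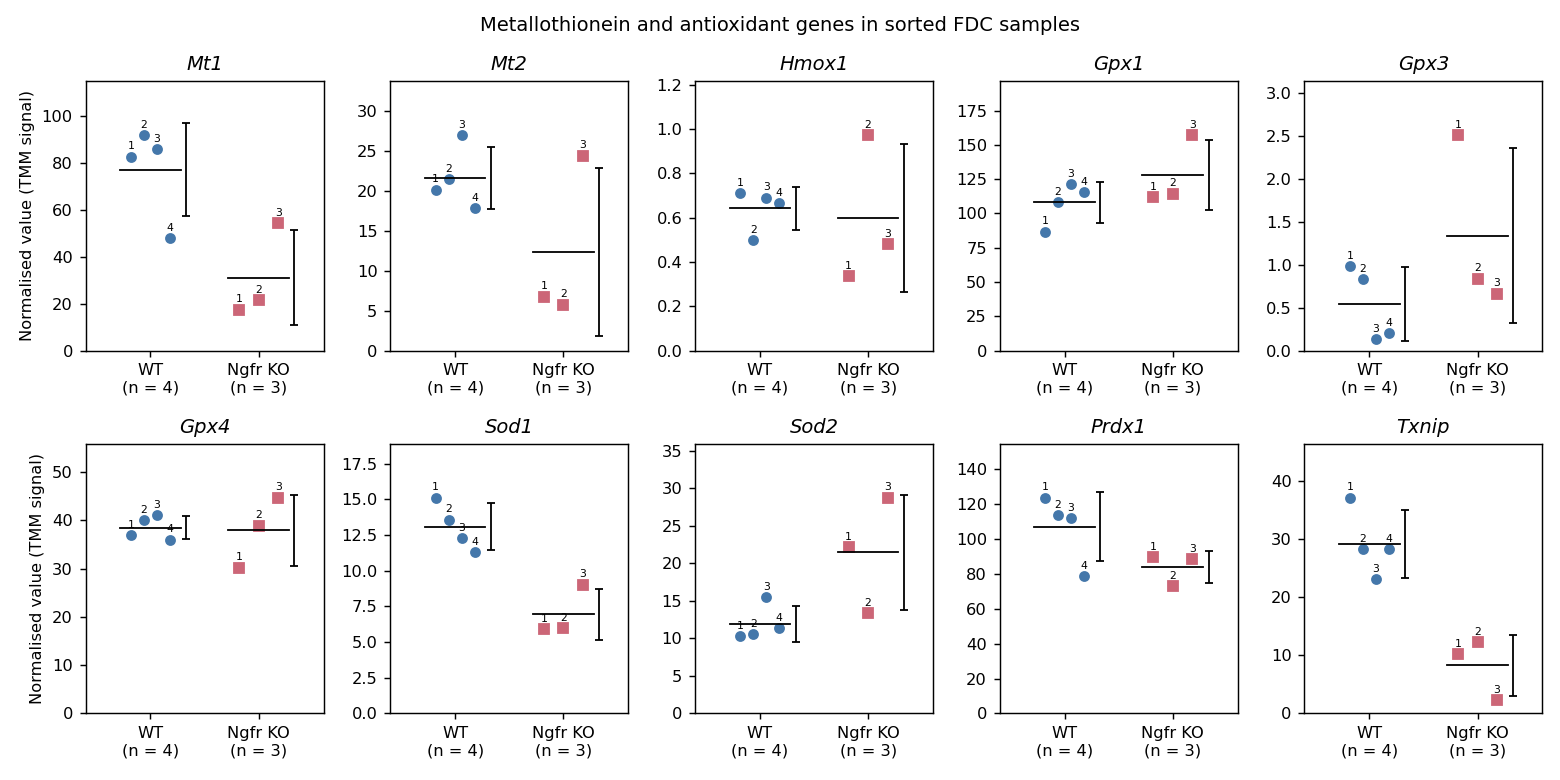
Normalised value (y axis, TMM signal, starting at 0) of each of the 10 genes in 4 WT (circles) and 3 Ngfr KO (squares) samples. Numbers are replicates, horizontal lines are means and the bars beside them are 1 SD. Txnip and Sod1 separate the groups, and Ngfr KO replicate 3 lies within or near the WT range for Mt1 and Mt2.

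Levels of different genes were compared as the value per kilobase of merged exons. In WT the order of the means was Gpx1 at 75.0 per kilobase, Mt1 at 61.9, Mt2 at 36.8 and Prdx1 at 35.2, each overlapping the next over samples. Gpx4 at 22.3, Txnip at 9.34, Sod1 at 3.29 and Sod2 at 1.19 followed as separate steps. Hmox1 at 0.367 and Gpx3 at 0.299 per kilobase came last and overlapped. In Ngfr KO, Gpx1 stood alone at 88.8 per kilobase. Prdx1 at 27.5, Mt1 at 25.0, Gpx4 at 22.0 and Mt2 at 21.0 overlapped as neighbours, and so did Txnip at 2.65, Sod2 at 2.14 and Sod1 at 1.75. The lowest pair was again Gpx3 at 0.739 and Hmox1 at 0.341. Sod2's merged exons cover 10008 bases against 3970 for Sod1, so this scale depends on which annotated transcripts the cells use.

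Mt1 and Mt2 encode the 2 metallothioneins found in most tissues and lie 5513 bases apart on chromosome 8 (GRCm38). Mt1 is at 94179082 to 94180327 and Mt2 at 94172664 to 94173568, both on the plus strand. Their promoters are shown because metal response elements, the sites of MTF1, sit there and both genes were called lower. Each sequence is the 250 bases before the RefSeq start (GRCm38.p6), at chr8:94178839-94179088 and chr8:94172368-94172617. Capitals mark matches to the metal response element core, TGCACNC or TGCGCNC on either strand.
Mt1: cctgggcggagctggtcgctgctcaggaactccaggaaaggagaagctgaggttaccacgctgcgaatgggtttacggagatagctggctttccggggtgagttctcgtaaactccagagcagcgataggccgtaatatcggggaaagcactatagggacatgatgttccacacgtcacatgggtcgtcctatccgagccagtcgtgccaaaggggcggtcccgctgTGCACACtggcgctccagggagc
Mt2: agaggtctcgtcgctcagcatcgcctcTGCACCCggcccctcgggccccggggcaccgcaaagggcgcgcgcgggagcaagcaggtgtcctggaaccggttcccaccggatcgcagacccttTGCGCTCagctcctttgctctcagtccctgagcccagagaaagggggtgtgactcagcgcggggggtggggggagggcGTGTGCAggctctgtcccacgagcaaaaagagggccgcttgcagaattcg
The matches shared no bases with each other. With the 50 bases after the start included, Mt1 had 3 matches and Mt2 had 4. Of 32851 promoter windows of that length, 25.7% held at least 1 match and 1.97% held 3 or more. GENCODE M21 also lists starts downstream of the RefSeq ones, at 94179211 and 94179241 for Mt1 and at 94172664 and 94172860 for Mt2, whose upstream bases are only in part covered. A match is a string of letters in this window and no measure of binding.

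Mt1 was at 82.8, 92.0, 86.0 and 47.9 in WT and 17.6, 21.4 and 54.4 in Ngfr KO. Ngfr KO replicates 1 and 2 lay below all WT samples, whereas replicate 3 lay above WT replicate 4, so the groups overlapped. The means were 77.2 ± 19.9 (SD, n = 4) and 31.1 ± 20.3 (SD, n = 3). The log2 change was -1.41 (adjusted p = 0.0100 in limma, SE 0.35), and edgeR gave -1.26 (adjusted p = 0.0465). An exact permutation test (two-sided) of the values gave p = 0.0857, where the smallest p that 4 against 3 samples allow is 0.0286. Without Ngfr KO replicate 3 the log2 change was -1.90, and without replicate 1 it was -1.11 and no longer called (limma adjusted p = 0.0515).

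Mt2 was at 20.2, 21.5, 27.0 and 17.8 in WT and 6.79, 5.78 and 24.4 in Ngfr KO. The same Ngfr KO sample, replicate 3, stood apart from the other 2 of its group and within the WT range. The means were 21.6 ± 3.89 (SD, n = 4) and 12.3 ± 10.5 (SD, n = 3), with a log2 change of -1.02 (adjusted p = 0.0488 in limma, SE 0.37) that only just passed. edgeR did not call it (-0.78, adjusted p = 0.245), and the exact permutation test gave p = 0.200. The call was kept in 4 of 16 alternative analyses, and without Ngfr KO replicate 3 the log2 change was -1.62 (limma adjusted p = 0.00157). Mt2 shares 432 exon bases with the antisense gene Gm45774, and use of strand in counting is not stated in the sources used here. Gm45774 had a mean value of 0.776, far below Mt2.

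The ratio of Mt1 to Mt2 values was 4.10, 4.29, 3.18 and 2.68 in WT and 2.59, 3.71 and 2.23 in Ngfr KO. The groups overlapped in this ratio, so the balance between the pair did not separate them. By the root mean square difference of centred log2 values over the 7 samples, Mt2 ranked 5th of 8326 genes in likeness to Mt1, at 0.330. The nearest to Mt1 were Rps28 at 0.318 and Rps12 at 0.322, both ribosomal protein genes, and Otos at 0.326. The nearest to Mt2 were mt-Nd3 at 0.208, a mitochondrially encoded subunit of complex I, then Gm10076 at 0.209 and Gm10012 at 0.210. These distances are descriptions and share the same libraries. The share of mitochondrial reads was 7.42%, 7.27%, 6.88% and 5.55% in WT and 3.99%, 3.14% and 4.97% in Ngfr KO, so the lowest WT sample and the highest Ngfr KO sample were the same as for Mt1. Its part in the metallothionein differences was not tested.

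Of 19 other genes for zinc handling and metallothioneins, 13 were tested, 4 were called higher and 1 lower, with a median log2 change of 0.15. The 1 lower was Slc30a1, which encodes the zinc exporter ZnT1 and is itself a classic MTF1 target. It was at 2.50, 1.80, 2.07 and 2.17 in WT and 0.609, 0.746 and 1.45 in Ngfr KO, with no overlap. Its log2 change was -0.72 (adjusted p = 0.00829 in limma, SE 0.17), and it stayed called in all 15 alternatives that could be computed. Like Mt1 and Mt2, it was highest among the Ngfr KO samples in replicate 3. Only that Ngfr KO sample reached a value of 1, so Slc30a1 met the level filter through WT. Its promoter window held 2 metal response element cores, 1 before the start and 1 after it, and 25.7% of all windows held at least 1. The part of MTF1 in the Slc30a1, Mt1 and Mt2 differences was not tested. Mtf1 was at 3.50 ± 0.809 (SD, n = 4) in WT and 4.71 ± 1.37 (SD, n = 3) in Ngfr KO and was not called (log2 change 0.34, limma adjusted p = 0.196). The 2 called with the largest increases were Slc30a6, a zinc transporter of the Golgi, with a log2 change of 0.90, and Slc39a6, a zinc importer, with 0.88 (limma adjusted p = 0.00279 and 0.00166). Slc30a6 was at 1.54 to 2.57 in WT against 3.62 to 5.27 in Ngfr KO, and Slc39a6 at 0.771 to 1.35 and 2.59 to 3.08. In WT only replicates 2 and 3 reached a value of 1, so Slc39a6 met the level filter through Ngfr KO. Zinc genes therefore moved in both directions.

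Glucocorticoids also induce both metallothioneins. Of 12 other glucocorticoid-induced genes or regulators, 10 were tested, none was called higher and 2 were called lower, with a median log2 change of -0.06. They were Nr3c1, the glucocorticoid receptor gene, with a log2 change of -0.68 (limma adjusted p = 0.0137), and Fkbp5, a chaperone of that receptor, with -0.59 (limma adjusted p = 0.0183). edgeR did not call Fkbp5 (adjusted p = 0.0503). Tsc22d3, a widely used glucocorticoid response gene, was at 4.44 ± 0.775 (SD, n = 4) in WT and 5.13 ± 1.92 (SD, n = 3) in Ngfr KO and was not called (log2 change 0.14, limma adjusted p = 0.625).

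The 2 intracellular superoxide dismutases moved in opposite directions. Sod1 encodes the copper and zinc enzyme of the cytosol and lies at 90220754 to 90226329 on chromosome 16. It was at 15.1, 13.6, 12.3 and 11.3 in WT and 5.88, 5.96 and 9.02 in Ngfr KO. All WT samples lay above all Ngfr KO samples. The means were 13.1 ± 1.65 (SD, n = 4) and 6.96 ± 1.79 (SD, n = 3), 1.88-fold lower in Ngfr KO, with a log2 change of -0.84 (adjusted p = 0.00569 in limma, SE 0.19). The exact permutation test gave the smallest p it can, 0.0286, and Sod1 was called in all 16 alternatives. A processed copy of Sod1, Gm8566, is not among the rows of the table, and where its reads were assigned is not known.

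Sod2 encodes the manganese enzyme of mitochondria and lies at 13006846 to 13040063 on chromosome 17. It was at 10.3, 10.6, 15.4 and 11.4 in WT and 22.2, 13.4 and 28.7 in Ngfr KO. Ngfr KO replicate 2 lay below WT replicate 3, and the other 2 Ngfr KO samples lay above every WT sample. The means were 11.9 ± 2.39 (SD, n = 4) and 21.4 ± 7.70 (SD, n = 3), a ratio of 1.80. The log2 change was 0.75 (adjusted p = 0.0323 in limma, SE 0.24), edgeR gave 0.90 (adjusted p = 0.0374), and the exact permutation test gave p = 0.0571. WT replicate 3, the highest WT sample, also had the highest sum of B-cell markers, 200.6 against 31.8 to 48.1 in the other WT samples. Igkc alone held 179.7 of that 200.6, so the high sum rested mainly on that gene. Myeloid markers summed to 10.3 to 14.4 in WT against 18.9 to 51.4 in Ngfr KO. The part of B-cell or myeloid RNA in the Sod2 values was not tested. The call was lost when WT replicate 1, 2 or 4 or Ngfr KO replicate 1 or 3 was left out, with log2 changes of 0.69, 0.70, 0.74, 0.69 and 0.52 in that order. The ratio of Sod2 to Sod1 values was 0.681, 0.778, 1.26 and 1.01 in WT and 3.77, 2.25 and 3.18 in Ngfr KO. Every Ngfr KO sample lay above every WT sample in that ratio, with means of 0.931 ± 0.257 (SD, n = 4) and 3.07 ± 0.770 (SD, n = 3). The ratio joins 2 genes already called in opposite directions, and Sod1 alone separated the groups, so it is no independent support.

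Sod3, which encodes the secreted superoxide dismutase, was at 2.70, 6.13, 9.08 and 12.3 in WT and 19.5, 25.8 and 22.8 in Ngfr KO. All Ngfr KO samples lay above all WT samples, and the log2 change was 1.61 (adjusted p = 0.00448 in limma, SE 0.34). Ccs, the chaperone that loads copper into SOD1, was at 3.97 ± 0.715 (SD, n = 4) in WT and 5.48 ± 0.258 (SD, n = 3) in Ngfr KO. Its groups were separate, yet it was not called (log2 change 0.39, limma adjusted p = 0.0734). Of 9 copper genes, Ccs included, 8 were tested, none was called higher and 1 was called lower, with a median log2 change of -0.10. That gene was Cp, for the copper ferroxidase ceruloplasmin, which was at 24.7 to 41.3 in WT against 15.2 to 20.1 in Ngfr KO (log2 change -0.88, limma adjusted p = 0.00829).

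Glutathione peroxidases reduce peroxides with glutathione, and Gpx1, Gpx3 and Gpx4 carry selenocysteine. Gpx1, the cytosolic enzyme at 108338903 to 108340343 on chromosome 9, was at 86.7, 108, 121 and 116 in WT and 112, 115 and 157 in Ngfr KO. Apart from Ngfr KO replicate 3, the values lay in or close to the same range, and it was not called (log2 change 0.23, adjusted p = 0.438 in limma, SE 0.23). Gpx4, which protects membrane lipids and lies at 80047166 to 80056439 on chromosome 10, was at 36.9, 40.0, 41.0 and 36.0 in WT and 30.2, 38.9 and 44.7 in Ngfr KO. The Ngfr KO samples lay on both sides of the WT range (log2 change -0.04, adjusted p = 0.897 in limma, SE 0.19), and the sign turned under 3 other analyses (0.03 with median ratio scaling, 0.04 with edgeR and 0.11 without Ngfr KO replicate 1). A copy, Gpx4-ps2, carried at most 10.1% of the Gpx4 value in any sample. Gpx3, the secreted enzyme at 54902453 to 54910377 on chromosome 11, was at 0.988, 0.835, 0.139 and 0.206 in WT and 2.51, 0.841 and 0.665 in Ngfr KO. With 32 to 693 reads it missed the level needed for the test, and when it was added to the fit its log2 change was 0.56 (adjusted p = 0.121 in limma, SE 0.27). edgeR gave 1.38 (adjusted p = 0.198), and the groups overlapped.

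Catalase and the glutathione peroxidase and superoxide dismutase genes outside the 10 were listed together. Of these 7, 4 were tested and all 4 were called higher, against 18.3% of all genes tested. Their median log2 change was 1.24 against 0.02 over all genes tested. The list leaves out the members of the same families, of which Sod2 was called higher, Sod1 lower, and Gpx1 and Gpx4 not at all. Cat, the catalase gene, was at 3.96, 5.32, 7.13 and 4.77 in WT and 15.2, 19.3 and 14.8 in Ngfr KO. The lowest Ngfr KO sample lay well above the highest WT sample, and the log2 change was 1.48 (adjusted p = 0.000456 in limma, SE 0.19). Sod3 is given above. Gpx7 and Gpx8, which encode peroxidases of the endoplasmic reticulum, were named after their values were seen. Gpx7 was at 0.918 to 1.24 in WT against 2.09 to 3.10 in Ngfr KO, and Gpx8 at 1.69 to 4.03 and 6.53 to 7.06. Their log2 changes were 0.76 and 1.01 (limma adjusted p = 0.00310 and 0.00344). Over the samples, the 4 genes summed to 9.27 to 21.1 in WT against 44.3 to 55.3 in Ngfr KO. FDC markers were higher in the same samples. Reticular and fibroblast markers summed to 92.7 to 226.0 in WT against 251.6 to 361.4 in Ngfr KO, with 3 of 8 tested called higher and 0 lower. Much of that sum was Dcn, with means of 48.0 in WT and 197.9 in Ngfr KO. Other listed markers had lower means in Ngfr KO, such as Ccl21a (26.7 and 12.5) and Pdpn (3.47 and 2.31). The part of FDC or reticular RNA in this difference was not tested.

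**Figure D2:**
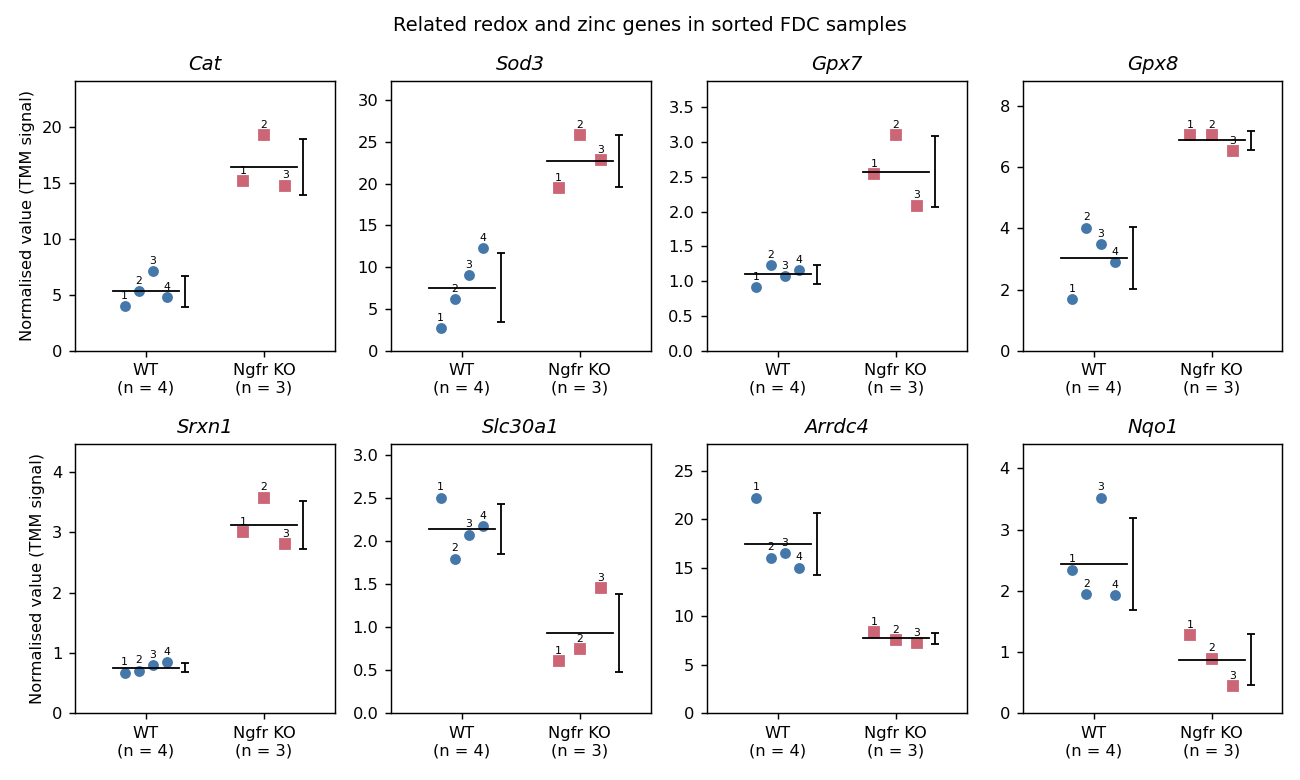
Normalised value (y axis, TMM signal, starting at 0) of 8 related genes in 4 WT (circles) and 3 Ngfr KO (squares) samples, with replicate numbers, means (lines) and 1 SD (bars). In each of the 8 the groups do not overlap, with Cat, Sod3, Gpx7, Gpx8 and Srxn1 higher and Slc30a1, Arrdc4 and Nqo1 lower in Ngfr KO.

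Of 17 genes listed for glutathione synthesis and NADPH supply, 11 were tested, 4 were called higher and none lower, with a median log2 change of 0.22. Over all genes tested 34.2% were called, 18.3% higher and 15.8% lower, so 4 calls among 11 lie close to the common share. Idh1, which makes NADPH in the cytosol, was at 4.94, 8.37, 7.75 and 8.66 in WT and 28.04, 27.9 and 22.9 in Ngfr KO, with a log2 change of 1.71 (adjusted p = 0.000315 in limma, SE 0.20). Ggt5, which cleaves glutathione conjugates outside the cell, was at 0.599 to 1.70 in WT against 3.58 to 5.51 in Ngfr KO (log2 change 1.28, limma adjusted p = 0.00129). Gsr, which regenerates glutathione, did not pass (log2 change -0.14, limma adjusted p = 0.508). Slc7a11, the cystine importer, was at 1.49 to 1.93 in WT against 0.726 to 1.36 in Ngfr KO, without overlap and without a call (log2 change -0.39, limma adjusted p = 0.0672). Gclc and Gclm, the subunits of the enzyme that begins glutathione synthesis, missed the level needed for the test, and edgeR gave log2 changes of -0.22 and -0.71 (adjusted p = 0.776 and 0.175). Of 24 glutathione transferase genes, 12 were tested, 3 were called higher and 1 lower, with a median log2 change of 0.17. In limma Gstm2 had the largest increase (log2 change 1.16, adjusted p = 0.00230), followed by Gstz1 with 0.77 (adjusted p = 0.00609). edgeR gave them the other order, with log2 changes of 1.30 for Gstm2 and 1.36 for Gstz1. Gstz1 reached a value of 1 in WT only in replicates 2 and 4, so it met the level filter through Ngfr KO. Mgst3 was the gene called lower, with -0.82 (limma adjusted p = 0.00319).

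Of 21 other selenoprotein genes or genes for selenocysteine incorporation, 15 were tested, 1 was called higher and 2 lower, with a median log2 change of 0.08. Selenop, for the secreted selenium carrier, was at 244, 243, 151 and 88.4 in WT and 64.1, 101 and 12.6 in Ngfr KO. Ngfr KO replicate 2 lay above WT replicate 4, and Ngfr KO replicate 3 was lowest. The log2 change was -1.91 (adjusted p = 0.0231 in limma, SE 0.57), but edgeR did not call it (-1.51, adjusted p = 0.115), and without Ngfr KO replicate 3 it was -1.05 and not called. Selenom, for a selenoprotein of the endoplasmic reticulum, was at 7.35 to 8.72 in WT against 2.66 to 4.15 in Ngfr KO (log2 change -1.02, limma adjusted p = 0.00129). Dio1, for a thyroid hormone deiodinase, had 0, 27, 0 and 0 reads in WT and 679, 1145 and 487 in Ngfr KO. It was the 1 gene called higher and passed the level filter through Ngfr KO alone, and without a filter its log2 change was 1.85 (limma adjusted p = 0.00783).

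Prdx1 encodes an abundant cytosolic peroxiredoxin that is recycled by thioredoxin, and it lies at 116685544 to 116700822 on chromosome 4. It was at 124, 114, 112 and 78.7 in WT and 89.6, 73.2 and 88.5 in Ngfr KO. WT replicate 4 lay inside the Ngfr KO range and the other 3 WT samples above it. It was not called (log2 change -0.34, adjusted p = 0.259 in limma, SE 0.23), and the lowest adjusted p in any alternative was 0.0509, under quantile normalization. The annotation holds 3 copies of Prdx1 at 90.9% to 98.3% identity, none of them a row of the table.

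Of 22 other thioredoxin and peroxiredoxin genes, 18 were tested, 1 (Srxn1) was called higher and 2 lower, with a median log2 change of 0.08. The core of the system was not called: Txn1, thioredoxin itself, had a log2 change of -0.03 (adjusted p = 0.932 in limma, SE 0.27) and Txnrd1, its reductase, one of 0.00 (adjusted p = 0.999 in limma, SE 0.19). Both signs turned in other analyses. Srxn1, which repairs over-oxidised peroxiredoxins, was at 0.677, 0.707, 0.795 and 0.843 in WT and 3.00, 3.57 and 2.81 in Ngfr KO. It passed the level filter through the Ngfr KO samples alone, so its call there is no independent support. In the limma fit of all 21176 genes without a filter its log2 change was 1.23 (adjusted p = 0.00783). Msrb3, a methionine sulfoxide reductase, and Nxn, nucleoredoxin, fell, with log2 changes of -1.15 and -1.12 (limma adjusted p = 0.00141 and 0.00165).

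Txnip had the largest difference of the 10. It lies at 96557957 to 96561883 on chromosome 3 and was at 37.1, 28.3, 23.1 and 28.3 in WT and 10.2, 12.3 and 2.27 in Ngfr KO. Every WT sample lay above every Ngfr KO sample, and Ngfr KO replicate 3, which was the highest of its group for Mt1, Mt2, Sod1 and Sod2, was the lowest for Txnip. The means were 29.2 ± 5.83 (SD, n = 4) and 8.27 ± 5.29 (SD, n = 3), 3.53-fold lower in Ngfr KO. The log2 change was -1.92 (adjusted p = 0.00343 in limma, SE 0.39), edgeR gave -1.72 (adjusted p = 0.0372), and the exact permutation test gave p = 0.0286, the smallest possible. It was called in all 16 alternatives, with log2 changes from -2.29 to -1.28, the smallest without Ngfr KO replicate 3. Txnip shares 606 exon bases with the antisense gene Gm15441, whose mean value was 0.165.

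**Figure D3:**
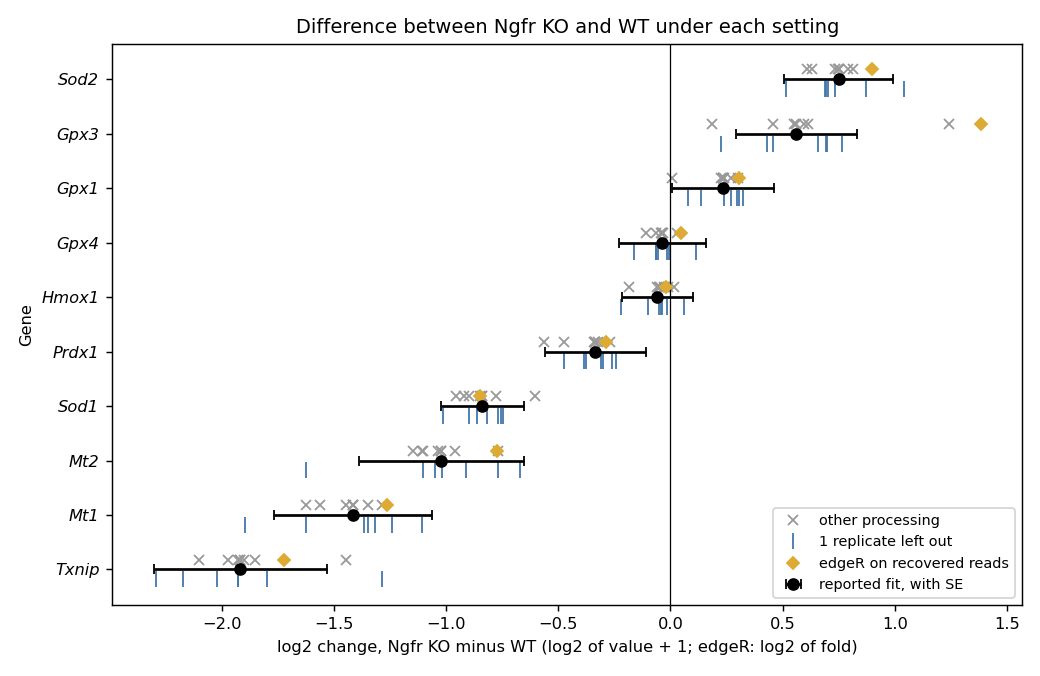
Difference between Ngfr KO and WT (x axis, log2 of value + 1, for edgeR log2 of the fold) for each of the 10 genes. Black points with bars are the reported fit and its SE, crosses other processing, ticks fits with 1 replicate left out and diamonds edgeR. Txnip, Mt1, Mt2 and Sod1 stay below 0 and Sod2 above 0 in all settings, while Gpx4 and Hmox1 cross 0.

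The Txnip and Arrdc4 promoters are shown because both genes are known targets of the glucose-sensing factors MondoA and ChREBP, which bind paired E-box-like sites. Each is the 250 bases before the RefSeq start (GRCm38.p6), at chr3:96557707-96557956 on the plus strand and chr7:68749239-68749488 on the minus strand. Capitals mark CACGAG in Txnip and CACGTG in Arrdc4, searched on both strands.
Txnip: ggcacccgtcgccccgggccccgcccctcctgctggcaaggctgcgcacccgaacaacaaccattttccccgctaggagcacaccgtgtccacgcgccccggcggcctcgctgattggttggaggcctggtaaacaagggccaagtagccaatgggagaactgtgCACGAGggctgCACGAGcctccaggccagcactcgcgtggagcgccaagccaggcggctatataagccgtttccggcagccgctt
Arrdc4: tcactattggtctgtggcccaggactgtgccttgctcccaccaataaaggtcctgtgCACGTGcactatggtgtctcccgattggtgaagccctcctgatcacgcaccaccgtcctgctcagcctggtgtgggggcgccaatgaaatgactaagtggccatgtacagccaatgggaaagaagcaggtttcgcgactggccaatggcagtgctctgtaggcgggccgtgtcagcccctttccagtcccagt
The 2 copies in Txnip lie at -85 to -80 and -74 to -69 from the start, with 5 bases between them. Of 32851 promoter windows of 300 bases, 6.47% held CACGAG and 7.15% held CACGTG. A pair of CACGAG with that gap was found in 1 window, that of Txnip, in a search made after the pair had been seen.

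Arrdc4, an alpha-arrestin related to Txnip, fell as well. It was at 22.2, 16.1, 16.5 and 15.0 in WT and 8.39, 7.58 and 7.22 in Ngfr KO, without overlap and with little spread within Ngfr KO. The log2 change was -1.07 (adjusted p = 0.00139 in limma, SE 0.18), and it was called in all 16 alternatives. Of 8 other alpha-arrestin and MondoA genes, Arrdc4 included, 6 were tested, none was called higher and 1, Arrdc4, was called lower, with a median log2 change of -0.02. Mlxip, which encodes MondoA, was not called (log2 change -0.23, limma adjusted p = 0.331). Arrdc4 ranked only 174th of 8326 genes in likeness to Txnip over the 7 samples, at a root mean square difference of 0.707. The 3 genes most like Txnip were Cldn5 at 0.236, Cd59a at 0.329 and Stab2 at 0.352. Cldn5 encodes a tight junction protein of endothelium and Stab2 a scavenger receptor of sinusoidal endothelium. Their log2 changes were -1.82, -1.55 and -2.16.

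The endothelial markers were lower in the same 3 samples as Txnip. Summed over 14 markers they were at 204.6, 158.6, 185.7 and 158.6 in WT and 62.8, 68.1 and 36.8 in Ngfr KO, and Ngfr KO replicate 3 was lowest in both measures. The part of endothelial RNA in the Txnip, Mt1, Sod1 and Selenop differences was not tested. Ngfr KO replicate 3 was at the same time the highest of its group for Mt1 and Mt2. Immediate early genes, which can respond to cell handling, had 6 of 17 tested called lower and none higher, with sums of 506 to 1079 in WT against 354 to 733 in Ngfr KO, and their part was not tested either. Depth differed between the groups, and with all libraries thinned to 1 total Txnip, Mt1, Sod1 and Sod2 kept their calls.

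**Figure D4:**
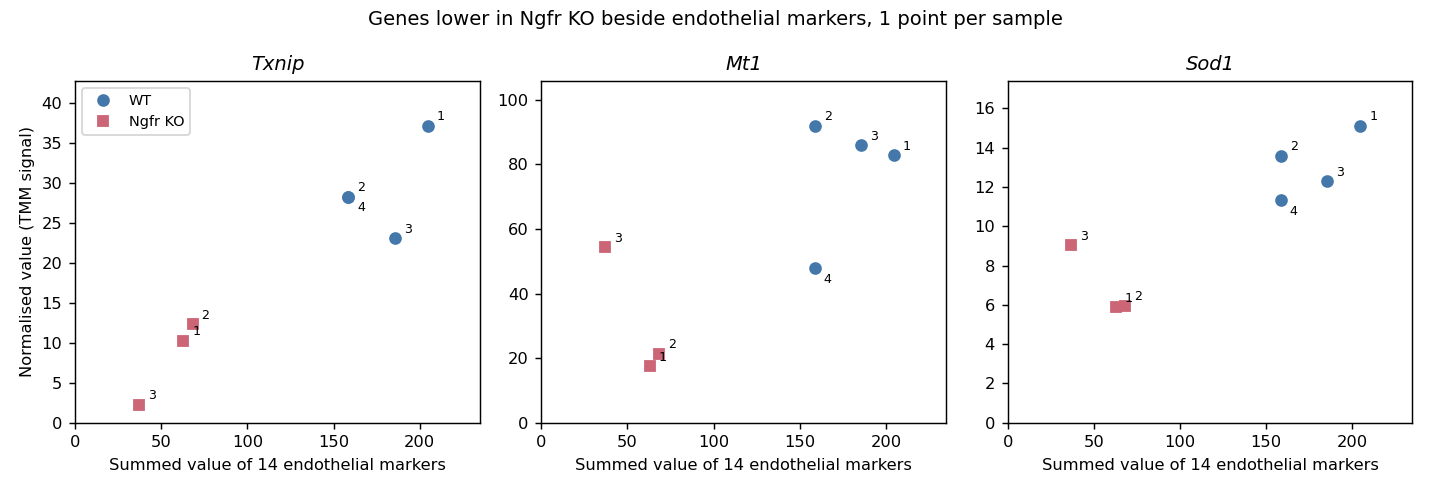
Normalised values of Txnip, Mt1 and Sod1 (y axes, TMM signal) against the summed value of 14 endothelial markers (x axis), with 1 point per sample, WT as circles and Ngfr KO as squares, numbered by replicate. The Ngfr KO samples lie at 36.8 to 68.1 on the x axis and WT at 158.6 to 204.6, and replicate 3 of Ngfr KO is lowest for Txnip but highest of its group for Mt1 and Sod1.

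Hmox1, for the inducible heme oxygenase, lies at 75093621 to 75100589 on chromosome 8 and was among the lowest of the 10 in every sample. It was at 0.712, 0.498, 0.691 and 0.667 in WT and 0.337, 0.974 and 0.480 in Ngfr KO, from 93 to 287 reads. The Ngfr KO samples lay on both sides of the WT range. It missed the level needed for the test, and when added to the fit its log2 change was -0.06 (adjusted p = 0.792 in limma, SE 0.16), with -0.02 from edgeR (adjusted p = 0.983). The sign turned under quantile normalization and without Ngfr KO replicate 1. The tested genes with the pattern most like it were Rabgef1, Dpf2 and Pard6g, at root mean square differences of 0.0635, 0.0742 and 0.0782.

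Of 21 other heme and iron genes, 17 were tested, 3 were called higher and 1 lower, with a median log2 change of 0.22. Of the 3 higher, the transferrin receptor gene Tfrc, passed the level filter through Ngfr KO alone. The ferritin genes were abundant and not called. Fth1, the heavy chain, was at 1109, 1180, 1270 and 1136 in WT and 747, 703 and 1177 in Ngfr KO (log2 change -0.46, limma adjusted p = 0.258), and here too Ngfr KO replicate 3 lay with WT. Ftl1, the light chain, was at 285 ± 32.95 (SD, n = 4) in WT and 332 ± 44.7 (SD, n = 3) in Ngfr KO (log2 change 0.22, limma adjusted p = 0.507). Trf, transferrin, was at 20.03 to 30.1 in WT against 40.0, 73.6 and 31.6 in Ngfr KO (log2 change 0.83, limma adjusted p = 0.0312). The Trf call was kept in 9 of 16 alternatives. Ncoa4, the receptor for ferritin breakdown, rose with a log2 change of 0.72, and Pcbp2, an iron chaperone, fell with one of -0.68 (limma adjusted p = 0.00776 and 0.00815). Blvrb, biliverdin reductase B, was not called (log2 change -0.55, limma adjusted p = 0.0707).

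NRF2, the factor that drives many antioxidant genes in oxidative stress, is encoded by Nfe2l2. Nfe2l2 was at 11.01 ± 2.12 (SD, n = 4) in WT and 9.94 ± 1.24 (SD, n = 3) in Ngfr KO, and neither it nor Keap1, its inhibitor, was called (log2 changes -0.12 and -0.14, limma adjusted p = 0.621 and 0.550). Of 18 genes of the pathway, 12 were tested, 1 was called higher and 2 lower, with a median log2 change of -0.06. Nqo1, a common readout of NRF2, was at 2.35, 1.95, 3.52 and 1.93 in WT and 1.28, 0.895 and 0.448 in Ngfr KO. No Ngfr KO sample reached the WT range, and the log2 change was -0.88 (adjusted p = 0.00650 in limma, SE 0.20). In Ngfr KO only replicate 1 reached a value of 1, so Nqo1 met the level filter through WT. Cbr3, a carbonyl reductase, was the 1 gene called higher and passed the level filter through Ngfr KO alone, and without a filter its log2 change was 0.75 (limma adjusted p = 0.0230). Mafg, a partner of NRF2, was called lower with -0.49 (limma adjusted p = 0.0370), a call that edgeR did not make (adjusted p = 0.0919). The antioxidant response element core TGACNNNGC, searched on both strands, was found in 12.4% of promoter windows and, among the 9 members with a window, in those of Mt2, Sod1 and Prdx1.

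Counted once each over all lists, 198 related genes were chosen, 135 were tested and 38 were called, which is 28.1% against 34.2% of all genes tested. Of the 135, 17.0% were called higher and 11.1% lower, against 18.3% and 15.8%. In each direction the share among the pathway genes was below that among all genes tested. Of the genes called, 4 passed the level filter through Ngfr KO samples alone: Cbr3, Dio1, Srxn1 and Tfrc.

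**Figure D5:**
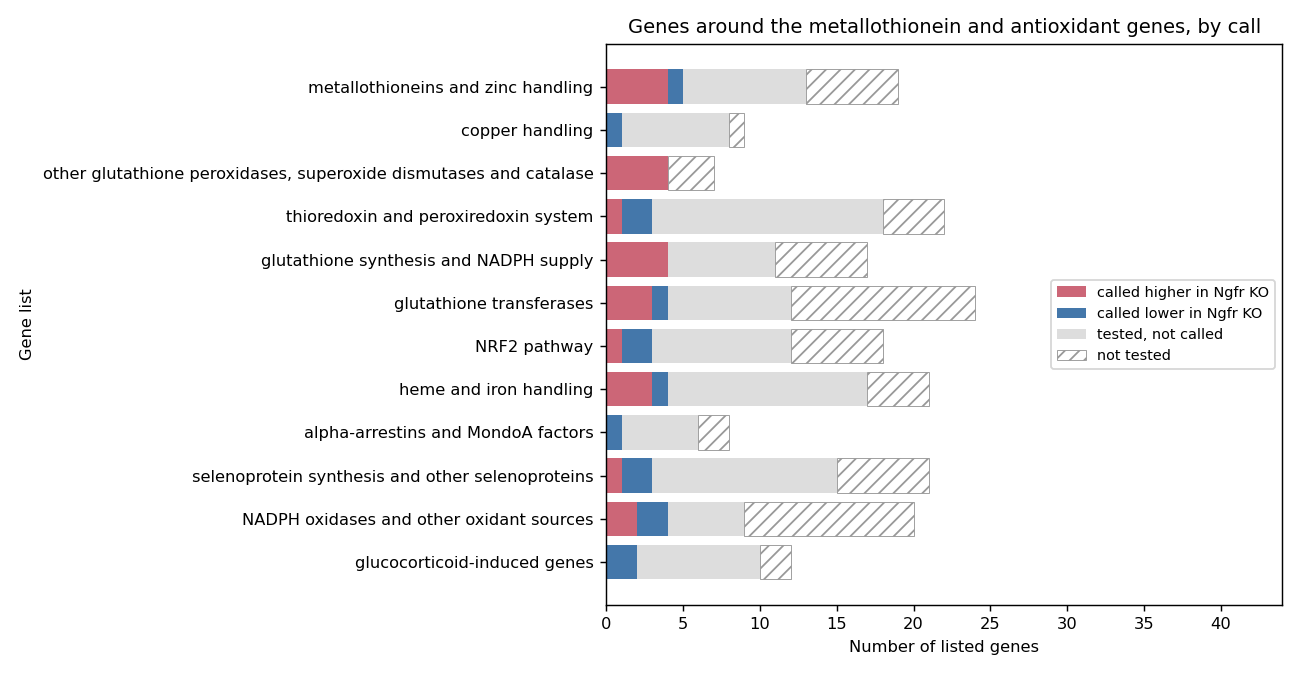
Number of listed genes (x axis) in each of 12 lists of related genes (y axis), split into called higher in Ngfr KO, called lower, tested but not called, and not tested. The other glutathione peroxidases, superoxide dismutases and catalase are called higher in 4 of 4 tested, against 18.3% of all genes tested. Most other lists hold calls in both directions or few calls.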

How the data were processed

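RNA of sorted FDCs from 4 WT and 3 Ngfr KO samples was amplified with SMART-Seq v4 and sequenced after Nextera XT preparation, per the labels' protocols. What the authors deposited was a single table of signal for each gene and sample, normalised by TMM according to its name. Per the submitters' processing notes, bcl2fastq 2.20.0.422 and the mm10 build were used. The aligner, the counting program and its use of strand are not given in the sources used here. Within each sample every value was a whole multiple of 1 step (tolerance 0.02 of a read), so reads were recovered by dividing by that step. Totals were 17244925 to 21538400 reads. Amplified reads are not independent molecules.

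Ngfr KO was compared with WT by limma 3.58.1 (functions lmFit and eBayes, trend option) under R 4.3.3, with genotype as the only term, on log2(value + 1). Genes entered the test where 3 or more samples had a value of 1 or higher. Log2 changes on this scale understate the change of low genes. Genes below that level took their values from the same fit with 5 genes added (8331 in all). edgeR 4.0.16 (quasi-likelihood) was run on the recovered reads, and p-values were adjusted by Benjamini-Hochberg over all genes. Exact permutation tests took the difference of means over the 35 ways to divide 4 and 3 samples. Groups and replicate numbers came from sample titles. Samples were pools, and whether they came from separate sorts is not stated, so p-values measure the spread between these samples. All replicate pairs differed beyond counting noise.

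Members and gene lists were chosen with earlier results of these data known. Named genes were the 10 members, the 2 called genes with the largest change in each direction of each list, and 22 set genes. A gene chosen by this rule and a marker are not reported here. For 4 members the 3 genes of most similar pattern were added. Coordinates are from GENCODE M21 on GRCm38 (21137 identifiers matched and 39 not), and promoters from RefSeq (GRCm38.p6), which matched 9 of the 10 members. Pseudogene copies with at least 90% identity over at least 200 bases were searched with BLAST 2.17.0+. Scripts were tested on simulated data. Alternatives were a pseudocount of 0.1 or 5, no filter, a filter at 10, quantile and median ratio scaling, a replicate block, edgeR, thinned reads and leaving out each sample.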

Additional observations from a re-analysis of the deposited data

Results flagged for a closer look

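In 58 groups of 4 WT samples, 1 for each gene named, 3 held a sample whose gap to its nearest neighbour exceeded the 95% critical value of Dixon's test, where chance gives about 1 in 20 groups, or 2.90. Msrb3 was at 7.22 in WT replicate 1 and 4.51 to 4.96 in the others, a gap of 0.832 of the range. Ggt5 was at 0.599 in WT replicate 1 and 1.595 to 1.70 in the others, a gap of 0.907 of the range. Dio1 was at 0.101 in WT replicate 2 and 0 in the others, so the gap was the whole range (1.0). None of the 10 metallothionein and antioxidant genes met the rule in WT, and the 3 Ngfr KO samples are too few for it.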

How the results depend on the processing

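Sod1 and Txnip kept their direction and call in all 16 alternatives, Mt1 in 14, Sod2 in 10 and Mt2 in 4. Of all genes, 2844 were called in the reported analysis, 535 with a filter at a value of 10, which tests fewer genes, and 1614 to 3006 with 1 sample left out. The 1 member called higher became 0 without a filter and 0 to 1 with 1 sample left out. The 4 members called lower became 2 without a filter and 2 to 4 with 1 sample left out. Pathway genes called higher numbered 23, and 5 with the filter at 10 and 15 to 35 with 1 sample left out. Those called lower numbered 15, and 5 with the filter at 10 and 11 to 19 with 1 sample left out. Apart from the filters, the cause was not tested.

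Signs turned only in genes that were not called. Txnrd1 became 0.0027 with a pseudocount of 5, 0.049 with median ratio scaling, 0.11 with the replicate block, 0.072 with edgeR and 0.015 with thinned reads. Hmox1 became 0.017 and Ftl1 -0.0034 under quantile normalization. Median ratio scaling and edgeR gave 0.030 and 0.045 for Gpx4 and 0.032 and 0.12 for Txn1. With 1 sample left out the ranges were -0.22 to 0.060 for Hmox1, -0.16 to 0.11 for Gpx4, -0.40 to 0.29 for Txn1, -0.19 to 0.13 for Txnrd1, -0.24 to 0.068 for Gclc and -0.10 to 0.35 for Tsc22d3.

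The correlations of deviations of same-numbered samples were 0.298, -0.0593 and -0.0108, against -0.200 to 0.111 for differently numbered ones. The pair numbered 1 was thus the highest, and whether a shared number stands for a shared sort is not stated. With the replicate block, in which WT replicate 4 has no partner and carries no weight, 2717 genes were called, 2422 of them shared with the reported 2844, and the members gave 1 higher and 4 lower. Srxn1, Cbr3 and Dio1 have no value without an Ngfr KO sample or at the stricter filter, where they were too low. Alternatives for related genes were chosen after seeing the data. Depth limits Hmox1, Gpx3 and Ngfr, with as few as 93, 32 and 46 reads.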

Other observations

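Enzymes that make oxidants were listed as the counterpart of the antioxidant genes. Of 20 genes for NADPH oxidases and other oxidant sources, 9 were tested, 2 were called higher and 2 lower, with a median log2 change of 0.20 against 0.02 over all genes tested. Ncf4, a cytosolic subunit of the phagocyte oxidase, was at 0.665, 1.19, 2.15 and 1.20 in WT and 4.62, 7.73 and 3.68 in Ngfr KO, with a log2 change of 1.45 (adjusted p = 0.00141 in limma, SE 0.24). Noxo1, an organizer of another oxidase, was at 0.300 to 1.30 in WT against 1.46 to 2.63 in Ngfr KO (log2 change 0.83, limma adjusted p = 0.0115). In WT only replicate 4 reached a value of 1, so Noxo1 met the level filter through Ngfr KO. Rac1, the small GTPase that activates oxidases and has many other roles, fell from 13.3 to 18.4 in WT to 6.14 to 7.96 in Ngfr KO (log2 change -0.98, limma adjusted p = 0.00181). Macrophage and myeloid markers, of which 4 of 12 were tested, were called higher in 3 and lower in 1 and summed to 10.3 to 14.4 in WT against 18.9 to 51.4 in Ngfr KO. Lyz2 had means of 2.81 in WT and 13.5 in Ngfr KO, Cd14 of 1.57 and 7.31, Spic of 3.98 and 8.23 and Cd68 of 0.208 and 0.653. Csf1r had means of 0.758 and 0.575. C1qa, C1qb, C1qc and Adgre1 were at 0 in 2 to 4 samples each, with no value above 0.160. The part of myeloid RNA in the Ncf4 difference was not tested.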
